A study of Homo sapiens with 9 samples.

Results

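Both knockout clones of Huh-7 cells, a human hepatoma line, were compared together with control Huh-7 cells to describe the transcript changes common to the loss of apoB and the loss of MTP. The comparison used all 9 libraries of the study, 3 from control Huh-7 cells, 3 from Ako-3 cells (APOB knock out) and 3 from Mko-3 cells (MTTP knock out), and 16169 of the 58735 genes in the count table had enough counts to be tested. The clone was kept as a factor, and the effect tested was the mean of the Ako-3 and the Mko-3 effects. Per the labels, cells of all groups were kept in DMEM with FBS and were in serum-free medium overnight before the polyadenylated RNA was taken. Each knockout is 1 clone grown from single edited cells, whereas no clonal selection is described for the control cells, so the knockouts and the selection of clones cannot be told apart. The controls serve both clones, and the p values measure the spread between libraries of the same cells.

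ApoB is the scaffold protein of very low density lipoproteins, and MTP (gene MTTP) is the endoplasmic reticulum (ER) protein that loads nascent apoB with lipid. Hepatocytes that lack either protein cannot assemble and secrete these particles, and apoB that is not lipidated is degraded. The ER answers an excess of unfolded protein with chaperones controlled by XBP1 and ATF6 and with the transcription factor ATF4, whose targets make and import amino acids. Heat shock proteins fold and refold proteins in the cytosol.

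The total counts were 14638727 to 20179760 per library. Of 12 hepatocyte or hepatoma markers, such as ALB and HNF4A, 12 were tested and none was called, and their summed level was 19390 to 20042 CPM (counts scaled to library size) in control, 22029 to 23188 in Ako-3 and 18381 to 19374 in Mko-3 libraries. The 6 lymphocyte markers together had at most 1.62 CPM in any library, and the 3 red blood cell markers were at 0 counts in every library. These sums were scaled to total counts alone, whereas CPM of single genes also used the TMM factors. Those factors were 1.04 to 1.05 in control, 0.970 to 0.973 in Ako-3 and 0.984 to 0.989 in Mko-3 libraries. Small differences between groups in the sums therefore depend on the scale. Libraries of the same group differed less (root mean square difference of 0.35 to 0.41 in log2 CPM) than libraries of different groups (0.60 to 0.78). On the principal components of log2 CPM, the first component (45.1% of the variance) separated control from knockout libraries, and the second (27.9%) separated Ako-3 from Mko-3 libraries.

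The targeted genes were measured first. APOB had 2688, 3513 and 3878 CPM in the control libraries, 1422, 1260 and 1268 in the Ako-3 libraries, and 3119, 3412 and 3254 in the Mko-3 libraries. APOB was thus lower in every Ako-3 library, while the Mko-3 libraries lay within the range of the controls. MTTP had 636, 604 and 664 CPM in control, 601, 577 and 542 in Ako-3 and 87.4, 90.8 and 83.0 in Mko-3 libraries, and only the Mko-3 libraries lay far below the rest. The clones differed for both genes, with a log2 difference (Mko-3 minus Ako-3) of 1.31 for APOB (adjusted p = 0.00012) and -2.72 for MTTP (adjusted p = 1.4e-22) in the quasi-likelihood test of edgeR, adjusted over all genes by the Benjamini-Hochberg method. In the mean of both clones APOB had a log2 fold change of -0.70 and MTTP of -1.51, so neither gene belonged to the changes that the clones shared.

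A call in the mean contrast required both a change of at least 1 in either direction on the log2 scale and an adjusted p of at most 0.05. Of the tested genes 1409 (8.71%) were called, 517 upregulated (3.2%) and 892 downregulated (5.52%), and the median log2 fold change of all tested genes was -0.01. The adjusted p alone passed 9143 genes (56.5%), so small differences between the control and the knockout cells were widespread. In 6298 tested genes (39%) all 6 knockout libraries lay beyond all 3 control libraries, and this was so for 1091 of the called genes. A called gene was counted as common to both clones if the 6 knockout libraries lay beyond the 3 controls and the clone effects were less than 2-fold apart. This common response held 918 genes (5.68% of tested genes), 367 upregulated (2.27%) and 551 downregulated (3.41%). The limit of 2-fold is one of size and does not show that the clones acted alike.

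The clones differed by at least 2-fold with an adjusted p of at most 0.05 in 304 of the 1409 called genes, against 930 of all tested genes (5.75%). This contrast compares the levels of the clones alone, but its standard error comes from the spread within all 3 groups, controls included. Of these 304 genes, 177 had the larger effect in Mko-3 and 127 in Ako-3 cells. The effects of the clones had opposite signs in 31 called genes. The remaining 187 called genes met neither description.

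**Figure D1:**
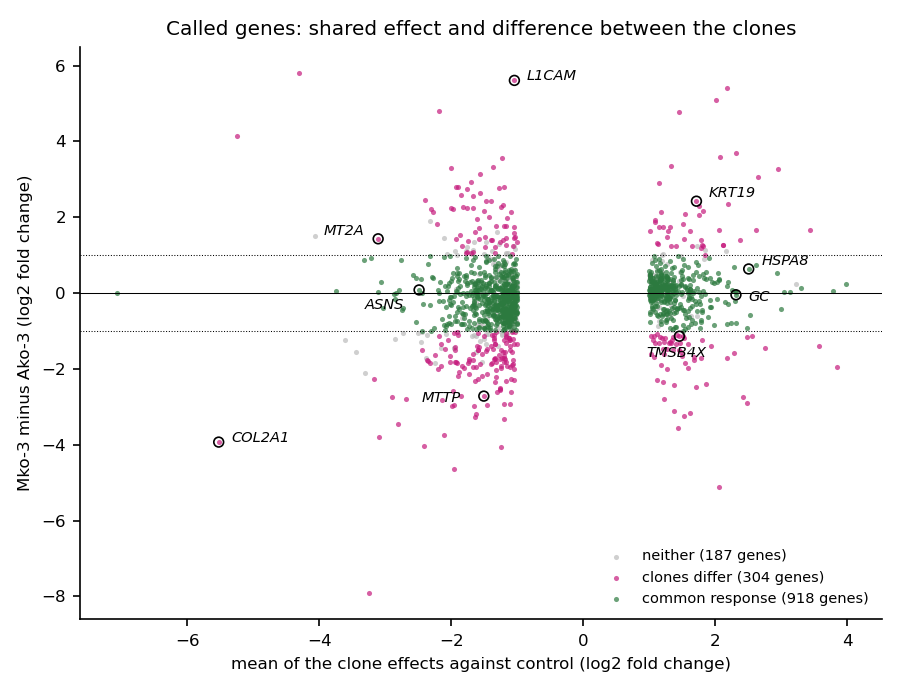
Mean log2 fold change of both clones against control (x axis) and Mko-3 minus Ako-3 log2 difference (y axis) of the 1409 called genes, with the 2-fold limits on the difference dotted. The 918 genes of the common response form the band around 0 (GC, HSPA8, ASNS), while 304 genes whose clones differ, such as MTTP, COL2A1, KRT19 and L1CAM, lie outside it. Fitted values of 61 genes with a group at 3 or fewer counts per library are included and are not bounds.

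The genes that rose most in both clones, among those with an average log2 CPM of at least 3, included a chaperone, a plasma carrier protein and liver enzymes. HSPA8, the constitutive cytosolic HSP70 chaperone, had 122, 203 and 122 CPM in control, 665, 687 and 684 in Ako-3, and 1022, 1043 and 1099 in Mko-3 libraries. In the mean of both clones it rose by 2.51 on the log2 scale with an SE of 0.19 (edgeR adjusted p = 3.7e-05). The groups did not overlap, and control replicate 2 was the highest control.

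GC, which encodes the vitamin D binding protein of plasma, had 180, 151 and 176 CPM in control, 873, 864 and 828 in Ako-3, and 845, 816 and 825 in Mko-3 libraries. The mean rise was 4.98-fold, or 2.34 in Ako-3 and 2.29 in Mko-3 cells on the log2 scale, with a difference of -0.05 (95% interval -0.16 to 0.06).

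AKR1D1, a reductase of bile acid synthesis, rose by 2.19 on the log2 scale, from 3.45 ± 0.58 CPM in control to 17.5 ± 1.84 in Ako-3 and 14.2 ± 0.72 in Mko-3 cells (SD, n = 3 each). UHRF1, a protein that maintains DNA methylation at replication forks, rose by 2.18, NLRP7, an NLR family gene, by 2.32, and ALDH8A1, an aldehyde dehydrogenase, by 2.18. HSPA1B, an inducible HSP70 whose reads can be shared with its near-identical copy HSPA1A, rose by 1.99. BCAS1 and C1orf116 rose by 1.93 and 1.92. AC079466.1 and AC112777.1 (2.24 and 1.96) have no role that can be stated.

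The genes that fell most in both clones included targets of ATF4. ASNS, which makes asparagine, had 22.2, 18.6 and 20.1 CPM in control, 3.73, 3.77 and 3.01 in Ako-3, and 4.25, 3.72 and 3.14 in Mko-3 libraries, and fell by 2.49 on the log2 scale with an SE of 0.12 (edgeR adjusted p = 1.3e-15). SLC7A11, the cystine importer, had 86.9, 101 and 101 CPM in control, 21.4, 21.6 and 20.3 in Ako-3, and 23.0, 24.2 and 16.3 in Mko-3 libraries, a log2 fold change of -2.18. In both genes the clones overlapped each other and stood apart from every control.

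CTH, which makes cysteine, had a mean log2 fold change of -2.06, CHAC1, which breaks down glutathione, of -2.04, and DDIT3, the stress transcription factor CHOP, of -1.69. ASNSP1 (-2.01) is a pseudogene that can share reads with ASNS. PMAIP1, a proapoptotic BCL2 family member, had -1.81, and CD55, a brake on complement at the cell surface, had -1.66. The other falls were SH3BP2, an adaptor protein (-1.77), DCHS1, a cadherin (-1.82), SLC25A27, a mitochondrial carrier (-1.64), and AKNA (-1.61).

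**Figure D2:**
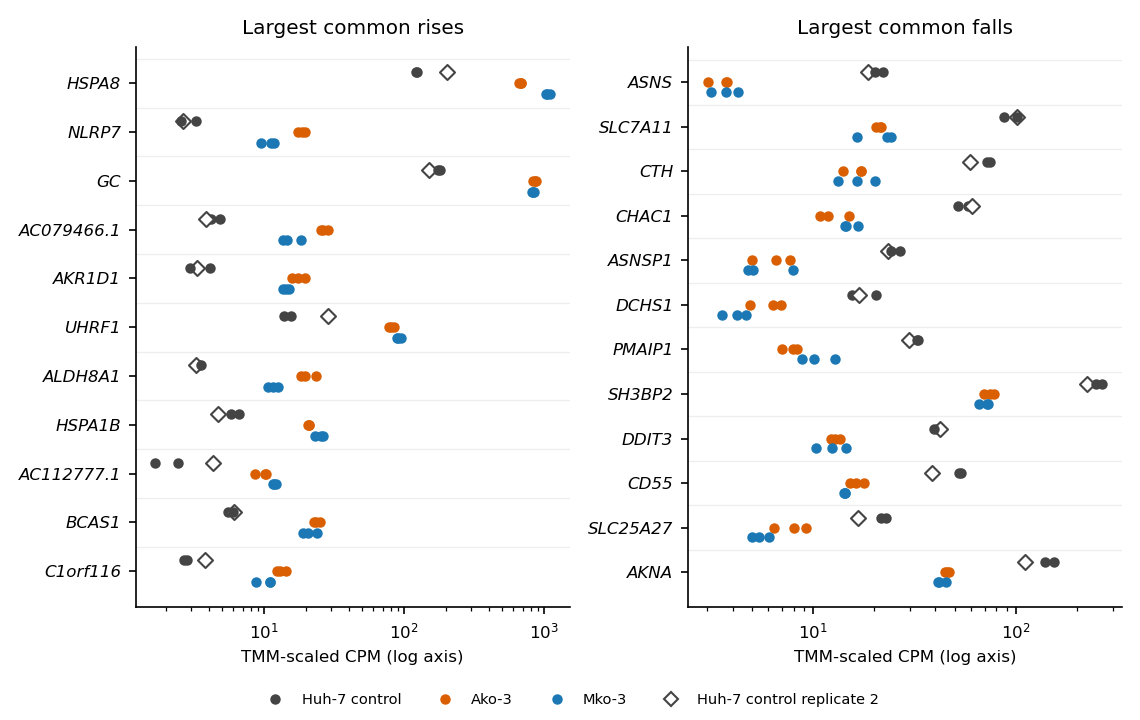
TMM-scaled CPM on a log axis of 11 of the 12 largest common rises and of the 12 largest common falls (average log2 CPM of at least 3), 1 point per library and the 3 replicates of each group in 1 color. In all genes shown the 6 knockout libraries lie beyond the 3 controls, and control replicate 2 (open diamond) sits toward the knockouts in HSPA8, UHRF1, AC112777.1, CD55 and AKNA but with the other controls in GC, SLC7A11 and DDIT3.

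Of all tested genes 81.2% were protein coding and 64.0% reached an average log2 CPM of 3. Of the upregulated genes of the common response 293 of 367 (79.8%) were protein coding, close to that share, and 196 (53.4%) reached that level. Of its downregulated genes 325 of 551 (59.0%) were protein coding and 120 (21.8%) reached that level. Antisense genes were called lower in 122 of 866 tested (14.1%) and lincRNA genes in 107 of 789 (13.6%), beside 545 of 13131 protein coding genes (4.15%). The share of all counts on lincRNA genes was 0.37% to 0.41% in control, 0.31% to 0.33% in Ako-3 and 0.30% to 0.31% in Mko-3 libraries, with no overlap between control and knockout. Other shares moved with it and also did not overlap. Mitochondrial rRNA took 1.25% to 1.43% of the counts in control, 0.99% to 1.03% in Ako-3 and 0.73% to 0.77% in Mko-3 libraries, and protein coding genes took 96.7% to 97.0% in control and 97.3% to 97.7% in the knockout libraries. Their part in the fall of noncoding genes was not tested. The library kit as described does not mark strand, so reads of an antisense gene cannot be told apart from those of its partner.

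DNA replication genes were among those that rose in both clones. Of 44 genes of the replication fork (helicase, polymerases, clamp and their loaders), 44 were tested, 20 were upregulated and none was downregulated, beside 3.2% upregulated among all tested genes. Their median log2 fold change was 0.89, with 0.76 in Ako-3 and 0.97 in Mko-3 cells, and 43 had a positive estimate. All 20 belonged to the common response, and no member differed by 2-fold between the clones at the adjusted p. Of 44 tested G1/S genes outside the fork, 15 were upregulated and none downregulated, with a median of 0.70. Of 56 mitosis genes none was called in either direction, with a median of 0.23, but without control replicate 2 there were 2 upregulated with a median of 0.33.

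MCM5, a subunit of the replicative helicase, had 35.9, 68.6 and 35.0 CPM in control, 159, 153 and 173 in Ako-3, and 133, 145 and 138 in Mko-3 libraries, and rose by 1.70 on the log2 scale with an SE of 0.23 (edgeR adjusted p = 0.00085). Control replicate 2 lay well above the other controls but below every knockout library. GINS2, a helicase cofactor, rose from 11.5 ± 3.25 CPM to 34.6 ± 1.12 in Ako-3 and 35.0 ± 2.65 in Mko-3 cells (SD, n = 3 each). CDC45 rose by 1.44 and LIG1, the ligase that joins Okazaki fragments, by 1.12. Among the G1/S genes, SLBP, the histone mRNA binding protein, rose by 1.25, CDC25A, a phosphatase that activates cyclin-dependent kinases, by 1.33, and CHAF1B, a histone chaperone subunit, by 1.20. In bulk RNA, more cells in S phase and more of these transcripts per cell cannot be told apart.

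The cytosolic heat shock list moved the same way in both clones. Of 27 tested genes 8 were upregulated and none downregulated, beside 3.2% and 5.52% of all tested genes. All 8 were in the common response, and the median was 0.66. DNAJA1, an HSP40 cochaperone, had 67.1, 86.6 and 67.0 CPM in control, 226, 226 and 243 in Ako-3, and 253, 246 and 260 in Mko-3 libraries, and rose by 1.72 on the log2 scale with an SE of 0.07 (edgeR adjusted p = 8.5e-15). DNAJB1, another HSP40, rose by 1.07 with a clone difference of -0.02 (95% interval -0.14 to 0.10).

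In the ER list, 4 of 50 tested genes were upregulated and 2 downregulated, beside 3.2% and 5.52% of all tested genes. The median was 0.34, with 42 positive estimates. MANF, an ER stress-induced secreted protein, rose from 40.1 ± 5.04 CPM in control to 84.1 ± 7.74 in Ako-3 and 111 ± 0.41 in Mko-3 cells (SD, n = 3 each), and CRELD2, an ER-resident isomerase, rose by 1.12. HSPA5, the ER chaperone BiP, had 573, 711 and 572 CPM in control, 1061, 1088 and 1088 in Ako-3, and 1314, 1292 and 1253 in Mko-3 libraries. Its log2 fold change of 0.93 missed the threshold of 1 and reached 1.04 without control replicate 2. ERN1, the sensor IRE1, fell by 1.14 on the log2 scale. XBP1 (-0.14) and ATF6 (-0.29) were not called.

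The ATF4 list went the other way. All 47 of its genes were tested, 13 were downregulated and none upregulated, beside 5.52% downregulated among all tested genes. The median was -0.56, with -0.60 in Ako-3 and -0.57 in Mko-3 cells, 44 estimates were negative, and in 30 genes every knockout library lay below every control. Besides the genes above, PPP1R15A, a phosphatase subunit that restores translation, fell by 1.41 on the log2 scale and MTHFD2, a mitochondrial folate enzyme, by 1.36. FGF21, a hepatokine, had 1.22 ± 0.21 CPM in control and at most 6 and 2 counts per library in Ako-3 and Mko-3 cells, so no fold is given. ATF4 mRNA itself had 510, 559 and 472 CPM in control, 470, 495 and 471 in Ako-3, and 465, 458 and 453 in Mko-3 libraries, a log2 fold change of -0.13, and the controls overlapped the Ako-3 libraries.

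The start regions of a few of these genes are shown because members of the fork, G1/S, heat shock and ATF4 lists moved together, and these genes are known for 3 DNA motifs. Windows from 250 bases before to 50 after the start were taken from RefSeq (GRCh38.p14) and searched on both strands for the E2F motif (TTTCCCGC or TTTGGCGC), the heat shock element (3 alternating units of GAA and its reverse complement TTC, with 2 free bases between neighbours) and the C/EBP-ATF element (TGATGNAA). The E2F motif was in 15 of 36 fork promoters and 12 of 37 G1/S promoters with a window, beside 2.31% of all 27305 promoters and 3.61% of the 10929 promoters of tested genes. The heat shock element was in 5 of 24 heat shock promoters, beside 0.487% of all and 0.329% of tested genes. The C/EBP-ATF element was in 6 of 31 ATF4 list promoters, beside 3.67% of all and 1.73% of tested genes. Of the called members with a window, 10 of 15 fork, 4 of 14 G1/S, 2 of 8 heat shock and 4 of 11 ATF4 list genes held the motif. Such a match is a run of letters and not a measured binding site.

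One promoter is shown for each list, that of the called gene with the largest change among those with a match and with counts above the floor in every group. CLSPN encodes claspin, a fork protein whose fitted rise of 1.86 on the log2 scale was read after its values were seen. The windows lie at chr1:35769929-35770228 (minus strand) for CLSPN, chr19:4909251-4909550 (plus) for UHRF1, chr11:123062087-123062386 (minus) for HSPA8 and chr7:97872359-97872658 (minus) for ASNS. Capitals mark the E2F motif in CLSPN and UHRF1, the heat shock element, present at 2 places, in HSPA8, and the C/EBP-ATF element in ASNS, and each is printed 5′ to 3′ on the strand of its gene.
CLSPN: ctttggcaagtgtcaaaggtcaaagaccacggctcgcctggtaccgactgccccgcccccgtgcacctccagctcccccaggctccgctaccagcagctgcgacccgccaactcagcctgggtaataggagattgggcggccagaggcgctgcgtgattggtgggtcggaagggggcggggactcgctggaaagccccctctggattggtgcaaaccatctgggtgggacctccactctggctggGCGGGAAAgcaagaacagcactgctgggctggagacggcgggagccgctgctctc
UHRF1: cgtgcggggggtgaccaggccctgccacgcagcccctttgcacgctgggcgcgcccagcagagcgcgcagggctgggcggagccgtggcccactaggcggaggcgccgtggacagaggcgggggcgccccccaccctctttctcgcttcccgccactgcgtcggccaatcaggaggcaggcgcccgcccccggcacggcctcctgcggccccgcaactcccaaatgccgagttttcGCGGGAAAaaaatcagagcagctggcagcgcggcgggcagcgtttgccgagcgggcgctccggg
HSPA8: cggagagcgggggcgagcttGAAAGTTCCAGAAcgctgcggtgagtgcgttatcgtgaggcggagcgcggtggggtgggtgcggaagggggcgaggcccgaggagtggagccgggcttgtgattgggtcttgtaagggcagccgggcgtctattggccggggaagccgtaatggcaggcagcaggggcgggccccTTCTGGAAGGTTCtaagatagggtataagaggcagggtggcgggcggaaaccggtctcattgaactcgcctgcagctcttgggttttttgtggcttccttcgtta
ASNS: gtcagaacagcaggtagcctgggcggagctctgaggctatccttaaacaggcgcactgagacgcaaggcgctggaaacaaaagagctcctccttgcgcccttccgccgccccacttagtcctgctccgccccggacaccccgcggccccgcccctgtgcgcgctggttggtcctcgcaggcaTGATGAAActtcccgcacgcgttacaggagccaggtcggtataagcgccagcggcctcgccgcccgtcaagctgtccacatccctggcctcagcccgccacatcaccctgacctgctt

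**Figure D3:**
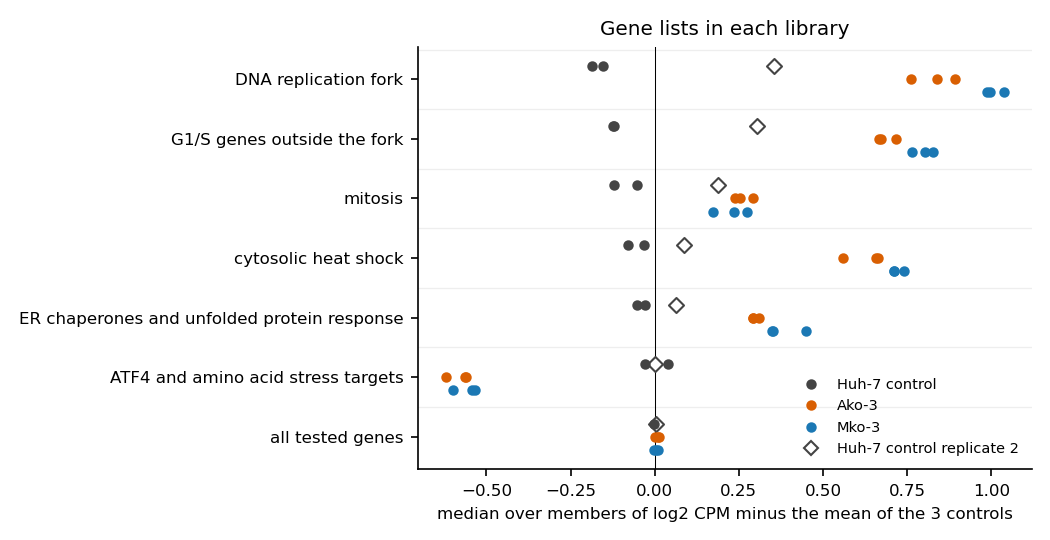
Median over the tested members of log2 CPM minus the mean of the 3 controls, for 6 gene lists and for all tested genes, 1 point per library. Both clones lie above control for the replication fork, G1/S, heat shock and ER lists and below it for the ATF4 list, while control replicate 2 (open diamond) stands apart from the other controls at 0.36 for the fork and falls among them at 0.001 for the ATF4 list.

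The lists closest to the lost function are read beside the 8.71% of all tested genes that were called. Of 31 tested genes of lipoprotein assembly and ER exit, MTTP alone was called, and the median was -0.09. Estimates of the others included -0.73 for SEC24A, a coat protein of vesicles that leave the ER, -0.60 for TM6SF2, which takes part in lipidation of apoB particles, and 0.30 for SURF4, a cargo receptor. Of 39 genes of cholesterol synthesis and uptake 1 was called (2 without control replicate 2), ABCG5, a sterol exporter, and of 22 genes of fatty acid synthesis 1, MLXIPL, the factor ChREBP. Both had the larger effect in Mko-3 cells. ABCG5 had 13.2 ± 3.02 CPM in control, 13.3 ± 2.06 in Ako-3 and 2.29 ± 0.35 in Mko-3 cells (SD, n = 3 each), and MLXIPL had 64.6 ± 5.82, 41.8 ± 2.27 and 14.9 ± 2.13 CPM.

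Of 29 genes of triglyceride synthesis and lipid droplets, 1 was upregulated and 3 were downregulated (0 and 4 without control replicate 2), beside 3.2% and 5.52% of all tested genes. PLIN5, a lipid droplet protein, belonged to the common response with a log2 fold change of -1.49, from 7.51 ± 1.47 CPM in control to 3.41 ± 0.48 in Ako-3 and 2.11 ± 0.55 in Mko-3 cells (SD, n = 3 each). HSD17B13, another lipid droplet protein, was also downregulated but low throughout (0.91 ± 0.35 CPM in control). PPARGC1A, a coactivator of fatty acid oxidation genes, fell and had 2.04 ± 0.55 CPM in control and 0.76 ± 0.09 and 0.23 ± 0.15 in the clones. Of 15 apolipoproteins other than apoB, APOL1 alone was called, with 1.36 ± 0.55 CPM in control, 2.41 ± 0.54 in Ako-3 and 7.50 ± 1.496 in Mko-3 cells.

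Several lists of secreted plasma proteins had different medians in the clones. Of 29 tested plasma carriers and protease inhibitors, 4 were upregulated and 2 downregulated, beside 8.71% called among all tested genes, with a median of 0.69 in Ako-3 and -0.01 in Mko-3 cells, and 8 members differed between the clones. SERPINA7, the thyroxine carrier, rose by 1.79, with 7.50 ± 0.72 CPM in control, 33.3 ± 1.07 in Ako-3 and 20.2 ± 0.70 in Mko-3 cells (SD, n = 3 each). ITIH2, an inter-alpha-trypsin inhibitor chain, had 280, 378 and 299 CPM in control, 1022, 1015 and 1007 in Ako-3 and 411, 465 and 426 in Mko-3 libraries, and the clones differed by -1.23 on the log2 scale (adjusted p = 6.6e-08, edgeR). The mean of ITIH2 therefore rests mainly on Ako-3 cells.

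Of 30 complement genes, 4 were upregulated and 2 downregulated, beside 3.2% and 5.52% of all tested genes. Their medians were 0.43 in Ako-3 and -0.22 in Mko-3 cells. C1S, a protease of the classical pathway, had 82.6, 75.7 and 92.8 CPM in control, 199, 198 and 193 in Ako-3 and 228, 214 and 235 in Mko-3 libraries, and rose by 1.33 on the log2 scale with an SE of 0.06 (edgeR adjusted p = 5e-16). SERPING1, the inhibitor of C1S, rose by 1.08. Both genes were higher in all 6 knockout libraries and belonged to the common response. Of 32 coagulation genes CPB2, a carboxypeptidase that slows fibrinolysis, was the only one called, with a rise of 1.89, and 3 were called without control replicate 2.

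Enzymes of drug and steroid metabolism moved both ways. Of 25 tested cytochrome P450 genes, 5 were upregulated and 4 downregulated, beside 3.2% and 5.52% of all tested genes, with a median of -0.04. Without control replicate 2 the counts were 2 and 6 and the median was -0.21. CYP2B6 rose from 15.9 ± 1.15 CPM to 63.8 ± 3.88 in Ako-3 and 39.0 ± 3.78 in Mko-3 cells, whereas CYP1A1 had 37.6 ± 3.53, 12.2 ± 0.58 and 21.7 ± 2.55 CPM, and CYP4F12 fell by 1.09 on the log2 scale. Of 33 conjugation enzymes 4 were upregulated and none downregulated. Only 1 of the 4 belonged to the common response, and 11 members differed between the clones, beside 5.75% of all tested genes. UGT2A3 and SULT1A2 rose more in Ako-3 cells, and UGT2B11 (2.29) was at no more than 6 counts in any control library and can share reads with its paralogs. OTC, a urea cycle enzyme, and PFKFB3, which makes an activator of glycolysis, rose in both clones by 1.51 and 1.76.

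Metallothioneins, which bind zinc and copper, also separated the clones. Of 7 tested genes of the list 4 were downregulated and 1 upregulated (4 and 0 without control replicate 2), beside 5.52% and 3.2% of all tested genes. Between the clones 5 differed, beside 5.75% of all tested genes. MT2A had 57.6, 43.4 and 40.4 CPM in control, 4.77, 2.35 and 3.01 in Ako-3 and 9.02, 8.12 and 9.87 in Mko-3 libraries, and MT1G was at most at 1 count in any Ako-3 library. These genes are near-identical, so their reads can be shared.

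The MAPK and NF-kB lists leaned down. The interferon-stimulated list did not, with 2 upregulated and 2 downregulated of 36 tested genes and a median of 0.08. All counts here are read beside 5.52% downregulated and 3.2% upregulated among all tested genes. Of 54 genes of MAPK feedback and immediate early response 8 were downregulated and 1 upregulated, with a median of -0.59 in Ako-3 and -0.22 in Mko-3 cells. JUN, a subunit of AP-1, had 398, 399 and 360 CPM in control, 154, 167 and 160 in Ako-3 and 227, 218 and 222 in Mko-3 libraries, a mean of -1.03. FGFR1, a growth factor receptor, had 32.2 ± 2.73 CPM in control, 9.92 ± 0.51 in Ako-3 and 3.51 ± 0.70 in Mko-3 cells. Among 29 NF-kB targets, 4 were downregulated and 1 upregulated, and RELB (-1.40) and NFKB2 (-1.08), subunits of the alternative NF-kB pathway, fell in both clones. BBC3, a p53 target that promotes apoptosis, fell by 1.49. Of 10 tested MAGE and other cancer-testis genes 6 were upregulated and none downregulated. MAGEA3 (1.63) and MAGEA6 (1.77), which are so alike that reads can be shared, were in the common response.

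Of 24 tested collagens 2 were upregulated and 6 downregulated (1 and 7 without control replicate 2), beside 3.2% and 5.52% of all tested genes. COL2A1 had 81.5, 94.2 and 74.5 CPM in control, 8.20, 5.71 and 7.42 in Ako-3 and 0.57, 0.46 and 0.33 in Mko-3 libraries. It fell in both clones and further in Mko-3 cells (clone difference -3.93 on the log2 scale, adjusted p = 1.3e-12, edgeR). COL1A2, also a stellate cell marker, fell from 3.25 ± 0.77 to 0.35 ± 0.39 and 0.37 ± 0.07 CPM. Of 3 tested stellate cell or fibroblast markers it was the only one called, and the 2 others had positive estimates of at most 0.11. The summed markers were 7.51 to 9.4 CPM in control, 5.45 to 9.1 in Ako-3 and 4.56 to 5.37 in Mko-3 libraries (scaled to total counts alone). The part of other cells in this was not tested. No ribosomal protein gene (73 tested) and no autophagy gene (41 tested, 1 downregulated without control replicate 2) was called, with medians of -0.11 and -0.16. The 13 protein coding genes of the mitochondrial genome were not called either, but their median was 0.54. In 11 of them every knockout library lay above every control. Their sum, scaled to total counts alone, was 40929 to 47230 CPM in control, 60248 to 63746 in Ako-3 and 49831 to 50688 in Mko-3 libraries. All mitochondrial genes, rRNA included, took 5.52% to 6.17% of the counts in control, 7.06% to 7.40% in Ako-3 and 5.75% to 5.82% in Mko-3 libraries.

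**Figure D4:**
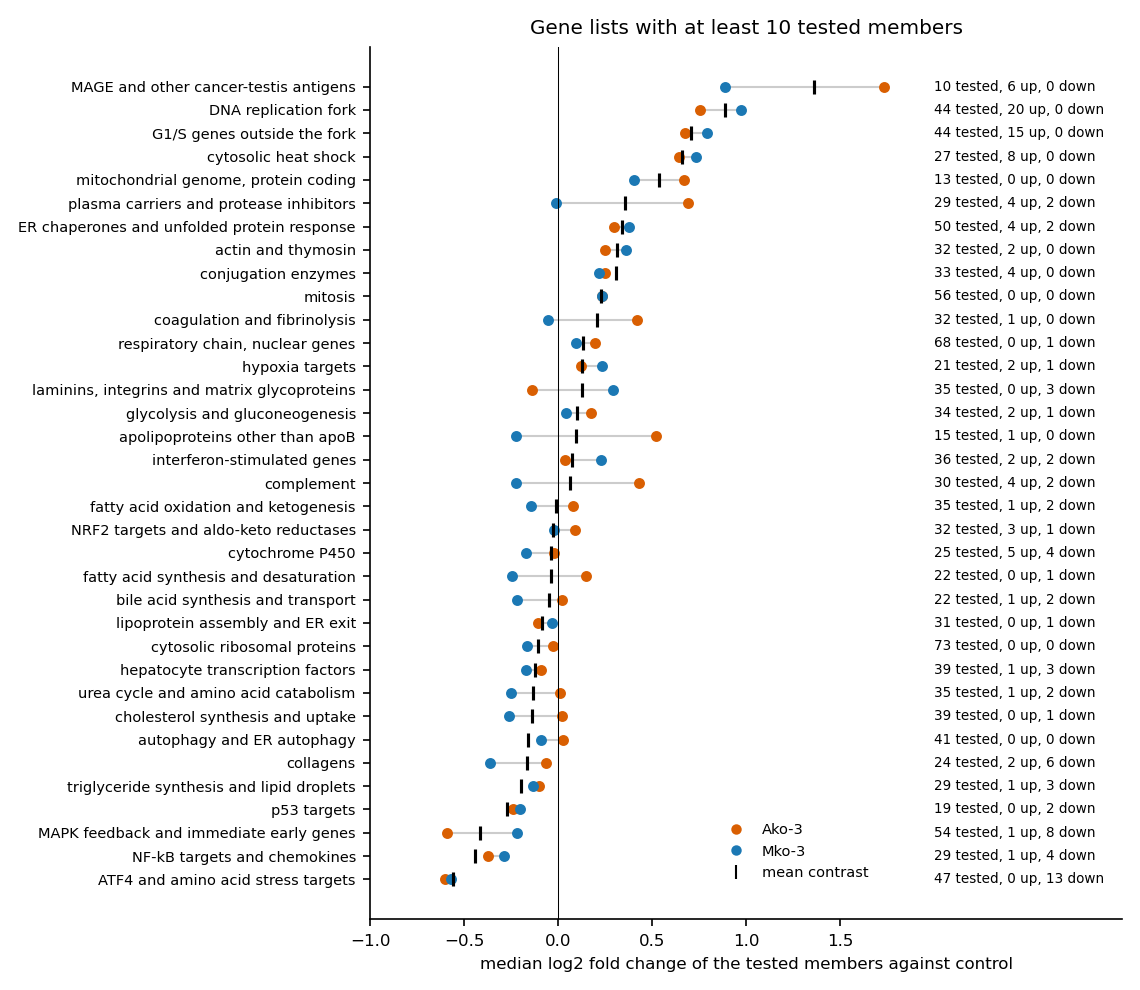
Median log2 fold change against control of the tested members of each gene list, in Ako-3 (orange), in Mko-3 (blue) and in the mean contrast (black bar), with the numbers tested and called at the right. The clones lie close together for the replication, heat shock, ER and ATF4 lists and apart for the plasma carrier, apolipoprotein, complement, coagulation and MAGE lists.

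Some of the genes that differed between the clones show where the mean does not describe either. L1CAM, a cell adhesion molecule, had 7.21, 6.08 and 6.45 CPM in control, 0.61, 0.41 and 0.35 in Ako-3 and 21.9, 20.7 and 24.6 in Mko-3 libraries, so it fell in one clone and rose in the other. KRT19, a keratin of bile duct cells, had 9.43 ± 0.04, 13.4 ± 0.84 and 71.9 ± 2.76 CPM in control, Ako-3 and Mko-3 cells. Of 4 tested bile duct cell markers, 2 had positive and 2 negative estimates in the mean contrast, and KRT19 was the only one called. The summed markers, which include KRT19, were 445 to 480 CPM in control, 382 to 397 in Ako-3 and 509 to 518 in Mko-3 libraries (scaled to total counts alone). SHANK3, a scaffold protein, had 56.8 ± 1.92, 40.5 ± 1.07 and 6.12 ± 0.34 CPM, and PCK1, the first enzyme of gluconeogenesis, 74.9 ± 9.95, 68.6 ± 5.88 and 18.5 ± 2.50 CPM. TMSB4X, thymosin beta 4, rose by 2.03 in Ako-3 and 0.89 in Mko-3 cells, a difference of -1.14 (adjusted p = 7.6e-15, edgeR).

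Control replicate 2 lay between the other controls and the knockouts. On the axis from the mean of the other controls (0) to the mean of the clones (1), over all tested genes, control replicates 1, 2 and 3 lay at 0.011, 0.255 and 0.043, and the knockout libraries lay at 0.883 to 1.05. Over the genes called without the library placed, the positions were 0.027, 0.239 and 0.054. On the first principal component the controls lay at -52.7, -38.1 and -49.7, and the third component (5.62% of the variance) set replicate 2 (-28.7) apart from replicates 1 (19.8) and 3 (3.70). With 3 controls the position of 1 library cannot be tested.

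Replicate 2 was beyond both other controls toward the knockouts in 47.8% of all tested genes, against 27.2% for replicate 1 and 25% for replicate 3. In the common response this was so for 200 of 367 upregulated and 338 of 551 downregulated genes. It was beyond both other controls and still short of all 6 knockouts in 22.2% of tested genes, against 8.86% and 7.9%. The shift was thus a part of the way and was spread over many genes.

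The position was farther toward the knockouts for the cell cycle lists. The 3 controls lay at -0.302, 0.468 and -0.282 for the replication fork, at -0.240, 0.434 and -0.274 for the G1/S list and at -0.433, 0.621 and -0.208 for mitosis, for each library against the other controls. The mitosis axis is short (median log2 fold change of 0.23, no gene called), so small differences between controls give large positions on it. In the fork list 42 of 44 genes were higher in replicate 2 than in both other controls, with a median deviation of 0.53 on the log2 scale. For mitosis genes the median of replicate 2 (0.187 above the control mean) was within the range of the Mko-3 libraries (0.173 to 0.276). Without the replication, G1/S and mitosis lists replicate 2 was still at 0.250. The next genes were picked among all genes with an average log2 CPM of at least 3, with no list left out. Replicate 2 lay farthest above the other controls in DSCC1, a clamp loader subunit (1.11), AC112777.1 (1.05), UHRF1 (0.96), MCM5 (0.95) and MCM4 (0.95).

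Some lists placed replicate 2 with the other controls. It lay at 0.052 for the ATF4 list, at 0.005 for the plasma carriers and at 0.002 for the collagens. It lay at 0.198 for heat shock, 0.235 for ER chaperones and 0.320 for fatty acid synthesis. For the ribosomal proteins, whose knockout levels were close to control, the 3 controls scattered from -0.799 to 0.573. Of the 12 largest common rises it was beyond both other controls in 5, with a median position of -0.003, and of the 12 largest falls in 8, with a median of 0.072. These genes were picked by a fold change whose control mean includes replicate 2. That selection favors genes in which replicate 2 lies away from the knockouts, and the 2 medians cannot be read apart from it. For GC replicate 2 was the lowest control (position -0.103) and for COL2A1 the highest (94.2 CPM), in both cases away from the knockouts. Its APOB level was the middle of the controls, and its MTTP level was the lowest of them. Genes on which it lay below the other controls included SAA1, an acute phase protein (17.9 CPM beside 44.1 and 39.8), CEACAM7 (9.65 beside 20.7 and 19.3) and SNRPG, a spliceosome protein (29.0 beside 59.2 and 53.1), and the interferon-stimulated list had a median deviation of -0.34. LSM12P1 and GPR89B, which were also low, have near-identical copies.

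Replicate 2 had the smallest total (14638727, beside 17865495 and 17142701) and 23311 detected genes beside 23783 and 24276. Its share of mitochondrial counts (5.66%) and its TMM factor (1.04) lay with those of the other controls. Its mitochondrial rRNA share (1.25%, beside 1.41% and 1.43%), protein coding share (96.96%, beside 96.70% and 96.67%) and lincRNA share (0.367%, beside 0.393% and 0.411%) lay apart from them on the side of the knockouts. The part of depth, library composition or handling in its position was not tested. Without it 1755 genes were called (10.6% of 16572 tested), 1296 of them among the 1409, against 1316 and 1371 without replicates 1 and 3, and 25 fork genes were upregulated in place of 20, with a median of 1.07.

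**Figure D5:**
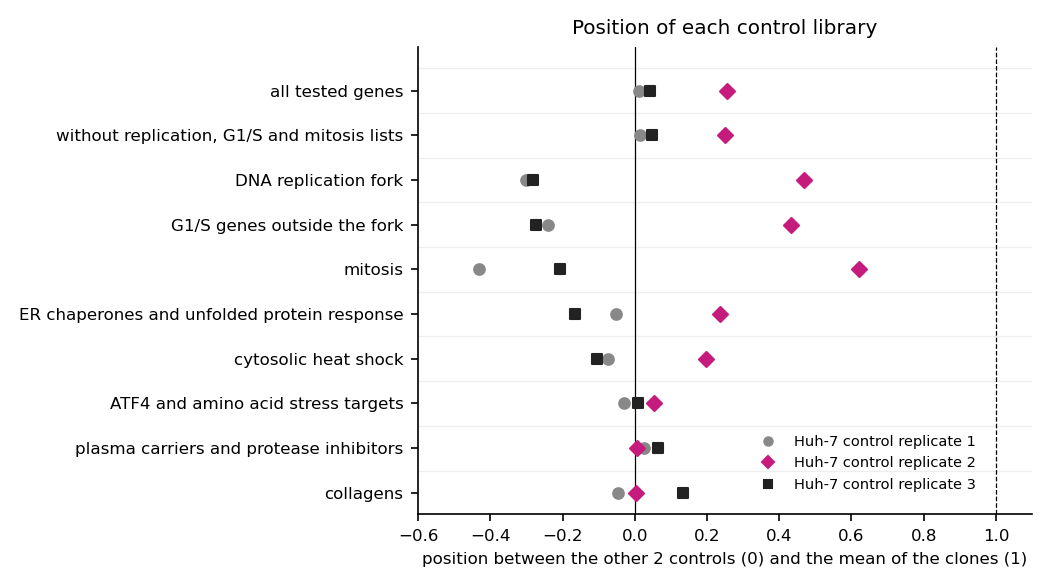
Position of each control library on the axis from the mean of the other controls (0) to the mean of both clones (1, dashed), over all tested genes, without the cell cycle lists, and within single lists. Control replicate 2 (diamonds) lies at 0.255 over all genes and at 0.434 to 0.621 in the replication fork, G1/S and mitosis lists, but near 0 for the ATF4, plasma carrier and collagen lists. The mitosis axis is short, and the controls scatter on it from -0.433 to 0.621.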

How the data were processed

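RNA-seq of 9 libraries was analysed, 3 each of control Huh-7, Ako-3 and Mko-3 cells, which the labels call biological replicates. The deposited gene counts were made by the authors from reads aligned to hg38 with HISAT2 2.0.5 and counted with featureCounts 1.5.0-p3. The deposited FPKM values, made by the authors from those counts, gene length and library size, served only for alternatives. No pair of libraries of the same group agreed within sampling noise. The control pairs had a chi-square per degree of freedom of 6.93 (replicates 1 and 3), 7.39 (2 and 3) and 8.88 (1 and 2). Pairs within either clone had 2.43 to 3.45, so the controls were more scattered by this measure, also without replicate 2.

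Genes were kept with filterByExpr (minimum count 10), scaled by TMM and tested with edgeR 4.0.16 (R 4.3.3) quasi-likelihood tests with 3 groups. The contrasts were the mean of both clone effects and Mko-3 minus Ako-3, both adjusted over all genes by Benjamini-Hochberg, and the script was tested on simulated data. CPM values of single genes are TMM-scaled, sums over several genes are scaled to total counts alone, and log2 CPM used a prior count of 2. The 95% intervals are normal intervals from the fitted standard error and cover the spread between libraries only. A group with at most 3 counts in every library was at the floor.

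Named genes (119) were APOB, MTTP and 9 genes the study singled out (GC, SERPING1, C1S, ATF4, ATF6, HSPA5, XBP1, TMSB4X, COL2A1), the 12 largest common rises and falls at an average log2 CPM of at least 3, up to 3 called genes of each list by smallest adjusted p, the largest clone differences (5 each way, average log2 CPM of at least 2) and the largest deviations of control replicate 2 (5 each way). CLSPN, SEC24A, SURF4 and TM6SF2 were chosen after their values were seen. The members and the 43 gene lists were chosen with earlier results of these data known. Alternatives used DESeq2 1.42.0, limma 3.58.1, other scalings and filters, a replicate block and each library left out. Some named genes are not reported here.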

Additional observations from a re-analysis of the deposited data

Results flagged for a closer look

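The effects of the 2 clones against the same controls differed by at least 2-fold in 40 of the named genes, by the test of the Mko-3 minus Ako-3 difference itself (edgeR quasi-likelihood test, adjusted p of at most 0.05, 3 libraries each). That test compares the levels of the clones alone, with an error taken from the spread within all 3 groups, and 930 of all tested genes passed it (5.75%). The named genes include the edited genes and those chosen for the largest clone differences (5 each way). Their count is therefore not comparable with that share. Each value below is that log2 difference, so a positive value means more transcript in Mko-3 cells. The targeted genes were APOB (1.31) and MTTP (-2.72). 

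Genes of lipid and glucose metabolism were lower in Mko-3 than in Ako-3 cells, with values for ABCG5 (-2.54), MLXIPL (-1.49), PPARGC1A (-1.64), G0S2 (-1.82), PCK1 (-1.89), SLC2A2 (-1.95), GPT (-1.25) and KLF15 (-1.24). ABCG5 exports sterols, PCK1 starts gluconeogenesis and SLC2A2 is the glucose transporter of hepatocytes. Secreted proteins differed both ways, with ITIH2 (-1.23), APOL1 (1.63), FGF19 (1.04), GDF15 (1.27), CXCL10 (-1.48) and WFDC2 (3.59). Conjugating and reducing enzymes were UGT2A3 (-1.14), SULT1A2 (-1.31) and AKR1B1 (1.01). Metallothioneins were higher in Mko-3 than in Ako-3 cells, with MT1F (1.82), MT2A (1.43) and MT1G (4.15), although MT1G was at the floor in Ako-3 cells, so that its fitted value is no bound. Matrix, adhesion and cytoskeletal genes were COL2A1 (-3.93), COL6A1 (-1.84), SPARC (2.44), L1CAM (5.61), CEACAM7 (3.29), KRT19 (2.42) and TMSB4X (-1.14). Receptors and genes of signaling were FGFR1 (-1.497), NOTCH3 (-3.33), UNC5B (2.81), SHANK3 (-2.73), VGLL3 (3.33) and EFHD1 (-3.20). The remaining genes were BST2 (-2.89), MAGEC2 (-1.65), NDUFV2 (1.35), CA9 (3.35) and LINC01559 (3.07). The cause of these differences was not tested, and with 1 clone per knockout the targeted gene and the clone cannot be told apart.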

How the results depend on the processing

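The count of 1409 called genes was between 991 and 1850 under other scalings, DESeq2, no filter on low counts, both clones pooled, FPKM with a pseudocount of 0.1, no mitochondrial genes and a test against a fold of 1.5. It was 734 with at least 10 counts in every library (fewer genes tested), 277 with limma on log2(FPKM + 1), whose pseudocount shrinks the folds of low genes, and 9143 by the adjusted p alone. Leaving out single libraries gave 1316 to 1755. The share of called genes that were higher was 36.7%, and it was 29.5% with upper-quartile factors, which moved the median of all genes to -0.07, and 54.5% on log2(FPKM + 1). Under that stricter filter the clones differed in 109 in place of 304 called genes. Over the replication fork and G1/S lists alone the controls lay at -0.276, 0.454 and -0.279. Without control replicate 2 the medians were 0.85 for the G1/S list, -0.52 for the ATF4 list and 0.38 for the ER list, and with upper-quartile factors -0.63 for the ATF4 and 0.27 for the ER list. The cause of these changes was not tested.

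The same replicate numbers did not pair the libraries (correlations of their deviations of -0.26 to 0.20). With the replicate number as a block, 1405 genes were called, 913 were common and the clones differed in 290.

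Over the named genes, 2263 values under alternatives kept their direction and their side of the threshold, 81 no longer passed it, 1 newly passed it and 18 reversed. The reversals were L1CAM (0.79 with the clones pooled, 0.13 on log2(FPKM + 1)) and genes with a fold change near 0. LSM12P1 was -0.14 without control replicate 2, in a range of -0.14 to 0.43 with single libraries left out, and GPR89B ranged from -0.65 to 0.58. SAA1 was 0.0040 with DESeq2, 0.020 without a filter, 0.10 with the clones pooled or on either FPKM scale, 0.055 with the replicate block, and -0.29 to 0.23 with single libraries left out.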
